A study of Mus musculus with 6 samples.

Results

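The genes described here are 10 p53 target and growth arrest genes of mouse skeletal muscle, taken by symbol as 10 of the 54532 rows of a gene count table. They are Trp53, Mdm2, Cdkn1a, Ccng1, Gadd45a, Phlda3, Bbc3, Bax, Sesn1 and Sesn2, and none was chosen by a threshold on a measured value. The tissue was gastrocnemius, a mostly fast calf muscle, taken from C57BL/6J mice at 3 months of age, and its RNA was sequenced in bulk. In 3 libraries the genotype label is Mck cre; Tg Glut1-Hk2-Pfkfb3, and in the 3 control libraries it is Mck cre alone, a Cre driven by the muscle creatine kinase promoter, which is active in striated muscle fibres. Both groups therefore carry the Cre, and both received 0.2% doxycycline with their water, supplied when they were 4 weeks old. Nothing in the labels states whether each library is a different mouse, and p-values here cover only the spread from library to library, which may be technical.

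The transcription factor p53, the product of Trp53, is held at a low level by the ubiquitin ligase Mdm2, whose own gene p53 activates. After DNA damage or other stress p53 accumulates and activates genes that stop the cell cycle, repair DNA, restrain growth signalling or start cell death. In muscle fibres, which no longer divide, several of these genes also answer to other inputs, among them FoxO factors and the stress factor ATF4, and Cdkn1a and Gadd45a are known to rise when a muscle is denervated or immobilised.

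The libraries held 19546456 to 24665024 counts in all, and 31788 to 50757 of these fell on the 10 genes. Fibre RNA dominated both groups, with Acta1, skeletal muscle actin, at 24204 to 30695 CPM (counts scaled by TMM library sizes to a common total) in the libraries labelled transgenic and 23097 to 29866 CPM in controls. The genes named in the transgene did not separate the groups as the label would have it. Pfkfb3 had 120.1, 476 and 542 CPM in the libraries labelled transgenic, against 579, 1096 and 1585 CPM in controls. None of Slc2a1, Hk2 and Pfkfb3 passed the test. Together the 3 summed to 475, 654 and 732 CPM in the libraries labelled transgenic, against 747, 1285 and 1784 CPM in controls. In transgenic replicate 1 most of that sum came from Slc2a1 and Hk2, so Pfkfb3 alone does not stand for the 3 genes. Of these 3 genes, 1 had a positive log2 fold change with all libraries, and 1 without control replicate 1. Directions below are therefore those of the labels. Control replicate 1 stood apart: it correlated with each of the other 5 at 0.947 to 0.961, while those 5 correlated among themselves at 0.962 to 0.988 (log2 CPM across genes). Results of the 10 genes are given with and without it, as was fixed when they were chosen, with earlier results of these data known. Transgenic replicate 1 had the most Mki67 and Top2a of all libraries, cell cycle genes named after their values were seen. Mki67 had 484, 15 and 36 counts in the libraries labelled transgenic, against 117, 27 and 10 in controls. Top2a had 326, 8 and 16 counts, against 105, 21 and 12 in controls. A list of 25 proliferation genes summed to 215, 156 and 156 CPM in the libraries labelled transgenic, against 226, 145 and 135 CPM in controls. Of these 25, 9 were highest in control replicate 1.

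Promoter sequence is shown first, for some of the members with a match to the p53 motif. p53 binds a pair of adjacent decamers, and the p53 decamer consensus is its own reverse complement, so 1 search covers both strands. RefSeq promoter windows on GRCm38.p6, cut here to the 250 bases before each annotated transcript start, were available for all 10 genes, in 14 windows. The single decamer matched without error in 7 of these 14 windows, in Trp53, Mdm2, Cdkn1a, Ccng1, Gadd45a, Bax and Sesn1, against 7.13% of all 32851 windows. The members were listed as p53 targets, so a larger share among them could be foreseen and says nothing of these libraries. Sites outside these 250 bases were not searched, so a member without a match may have sites elsewhere. A pair of decamers without a spacer, matching at 19 or more of 20 positions, was found in 2 of the 14 windows and in 25 of the 32851 windows (0.0761%). Both were upstream of arrest genes, Cdkn1a at position -51 from its upstream transcript start and Ccng1 at position -195. These are shown as the only member windows past that cut. The best windows of Trp53, Gadd45a, Bbc3, Bax and Sesn1 matched at 17 of 20 positions. Pairs with a spacer were not searched, and the part of any pair in the measured levels was not tested. The capitals mark the 20 bases of the pair, read on the strand of the gene, for chr17:29090888-29090975 (plus strand) and chr11:40755422-40755521 (minus strand).
Cdkn1a: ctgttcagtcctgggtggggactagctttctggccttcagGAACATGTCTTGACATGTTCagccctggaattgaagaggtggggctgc
Ccng1: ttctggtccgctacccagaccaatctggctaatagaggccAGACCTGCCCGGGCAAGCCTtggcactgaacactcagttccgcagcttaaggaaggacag

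For comparison, single decamers are shown for Sesn1, Mdm2 and Bax, picked after their values were seen. Sesn1 fell with Ccng1 when control replicate 1 was left out, and Mdm2 and Bax passed in no setting. The matches of Gadd45a and of Trp53, which also passed in no setting, are not shown. That of Gadd45a, at position -40, lies within the bounds of its gene. The capitals mark the decamer, for chr10:41887221-41887320 (Sesn1, plus strand, before its downstream transcript start), chr10:117710890-117710989 (Mdm2, minus strand) and chr7:45467045-45467144 (Bax, minus strand).
Sesn1: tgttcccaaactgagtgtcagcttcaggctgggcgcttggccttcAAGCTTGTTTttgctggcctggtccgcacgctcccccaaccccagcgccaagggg
Mdm2: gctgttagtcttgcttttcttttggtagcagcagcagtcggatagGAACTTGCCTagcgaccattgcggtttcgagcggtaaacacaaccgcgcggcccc
Bax: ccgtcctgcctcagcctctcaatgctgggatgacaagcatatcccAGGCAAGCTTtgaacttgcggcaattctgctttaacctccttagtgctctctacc
A match is a description of these letters and not a measured binding site.

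With all 6 libraries, 0 of the 10 genes passed (edgeR quasi-likelihood test, Benjamini-Hochberg threshold 0.05 over 14973 genes), where 1.3% of all genes passed. At an unadjusted p under 0.05 there were 2 members, Gadd45a and Ccng1, both lower in the libraries labelled transgenic, beside 20.8% of all genes in either direction and 10.3% lower. DESeq2 called 1 member, Gadd45a, as lower, beside 7.31% of all genes called and 3.31% called lower. Without control replicate 1, 3 of the 10 members fell in the libraries labelled transgenic, Gadd45a, Sesn1 and Ccng1, and 0 rose, beside 13.1% of all genes called, 6.99% lower and 6.08% higher. The 3 calls were thinly held. They numbered 0 when control replicate 2, control replicate 3 or transgenic replicate 3 was also left out, and 2 (Gadd45a and Sesn1) when transgenic replicate 2 was. Without control replicate 2 or 3 a lone control library is assumed to vary like the other group. With scaling by library totals 1 of them, Sesn1, remained.

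**Figure D1:**
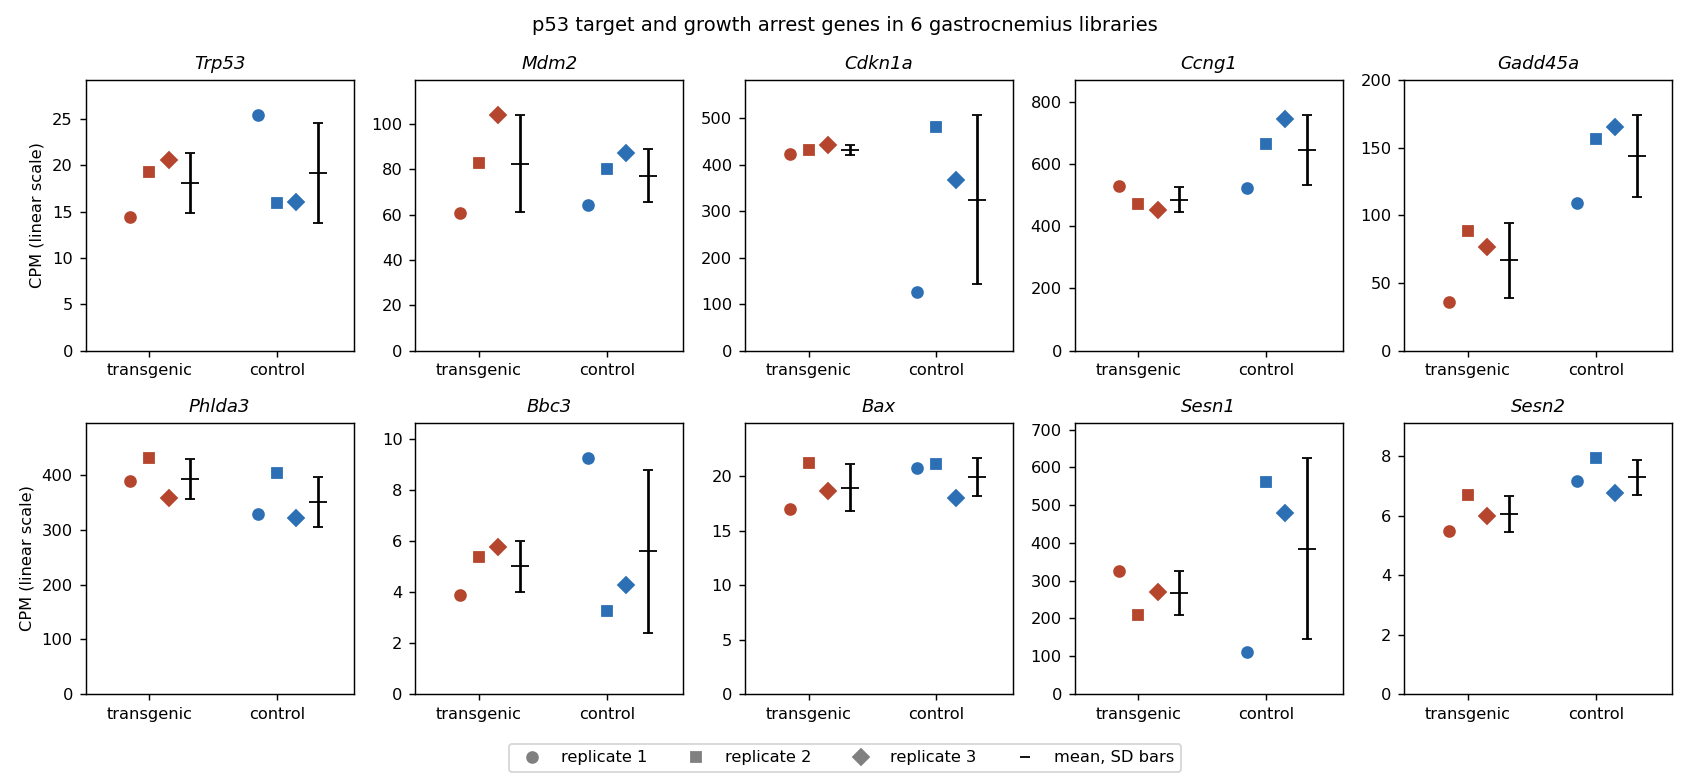
CPM of the 10 genes in each library, with the libraries labelled transgenic on the left and controls on the right of each panel, and the mean with SD bars (n = 3). Control replicate 1, the circle on the right of each panel, was the lowest of all libraries for Cdkn1a (126 CPM) and Sesn1 (112 CPM) and the highest for Trp53 (25.4 CPM) and Bbc3 (9.26 CPM).

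Trp53 and its brake Mdm2 passed in neither fit, and their groups overlapped. Trp53 (ENSMUSG00000059552, chromosome 11, 69580359 to 69591873 on GRCm38) had 14.4, 19.3 and 20.6 CPM in the libraries labelled transgenic, against 25.4, 16.0 and 16.0 CPM in controls. Control replicate 1 was above every other library, and the rest were intermixed. Its log2 fold change, transgenic over control, was -0.08 ± 0.23 (SE, adjusted p = 0.866), and 0.18 ± 0.17 without control replicate 1 (adjusted p = 0.499). The processed pseudogene Trp53-ps had 10, 7 and 4 counts in the libraries labelled transgenic and 27, 6 and 8 in controls, against 338 to 609 counts for Trp53, and reads that fit both copies cannot be told apart. Mdm2 (ENSMUSG00000020184, chromosome 10, 117688875 to 117710758) had 60.8, 82.6 and 104 CPM in the libraries labelled transgenic, against 64.2, 80.2 and 87.0 CPM in controls. The 3 control values lay within the range of the libraries labelled transgenic, and the log2 fold change was 0.09 ± 0.21 (adjusted p = 0.827, 95% interval -0.39 to 0.58), and -0.02 ± 0.21 without control replicate 1 (adjusted p = 0.952).

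Cdkn1a, which encodes the cyclin-dependent kinase inhibitor p21, was the member with the steadiest level in one group and an unsteady level in the other. Cdkn1a (ENSMUSG00000023067, chromosome 17, 29090976 to 29100727) had 422, 431 and 442 CPM in the libraries labelled transgenic, against 126, 482 and 368 CPM in controls. The libraries labelled transgenic lay between control replicates 2 and 3, and control replicate 1 lay far below all 5 others. The mean was 432 ± 9.88 CPM in the libraries labelled transgenic and 325 ± 182 CPM in controls (SD, n = 3 each), with a log2 fold change of 0.41 ± 0.41 (adjusted p = 0.603). Without control replicate 1 it was 0.02 ± 0.14 (adjusted p = 0.921), and the 95% interval ran from -0.31 to 0.36. The antisense gene AC167363.2 shares 273 exon bases with Cdkn1a and had 58 to 134 counts, against 3023 to 11038 for Cdkn1a, so shared reads leave its exact level uncertain.

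Ccng1, cyclin G1, recruits a phosphatase to Mdm2. Ccng1 (ENSMUSG00000020326, chromosome 11, 40748552 to 40755311) had 530.4, 472 and 453 CPM in the libraries labelled transgenic, against 523, 666 and 745 CPM in controls. Transgenic replicate 1 and control replicate 1 were nearly level, and the remaining libraries did not overlap. The log2 fold change was -0.41 ± 0.17 (adjusted p = 0.234) with all 6 libraries. Ccng1 without control replicate 1 fell by 31.3% in the libraries labelled transgenic, a log2 fold change of -0.54 ± 0.13 (edgeR, adjusted p = 0.0416).

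Gadd45a, a small nuclear protein that binds PCNA and p21 and activates stress kinases, had the largest log2 fold change of the 10 genes in either direction, with and without control replicate 1. Gadd45a (ENSMUSG00000036390, chromosome 6, 67035096 to 67037457) had 35.8, 88.4 and 76.6 CPM in the libraries labelled transgenic, against 109, 157 and 166 CPM in controls. The groups did not overlap, the libraries labelled transgenic being lower. This was so in 2 of the 10 members, both lower, beside 27.4% of all genes in either direction and 13.6% lower. The mean was 66.9 ± 27.6 CPM in the libraries labelled transgenic and 144 ± 30.4 CPM in controls (SD, n = 3 each), and the log2 fold change was -1.10 ± 0.33 (adjusted p = 0.131). DESeq2 gave an adjusted p of 0.0153, and without control replicate 1 Gadd45a fell at -1.27 ± 0.32 in edgeR (adjusted p = 0.0448). Transgenic replicate 1, the library with the most Mki67, had the least Gadd45a. Without that library the log2 fold change was -0.78 (adjusted p = 0.170), and without both it and control replicate 1 it was -0.95 (adjusted p = 0.00192). The part of the cells that carry Mki67 in the low Gadd45a was not tested. The antisense gene E230016M11Rik shares 337 exon bases with Gadd45a and had 24 to 44 counts, against 866 to 3594 for Gadd45a, so shared reads leave its exact level uncertain.

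The genes of cell death did not pass in either fit. Bbc3, which encodes PUMA, a BH3-only protein that frees BAX to act, was low in every library. Bbc3 (ENSMUSG00000002083, chromosome 7, 16308393 to 16318205) had 3.88, 5.38 and 5.77 CPM in the libraries labelled transgenic, against 9.26, 3.26 and 4.29 CPM in controls, from 69 to 222 counts. Control replicate 1 was again the highest, and the sign followed it, with a log2 fold change of -0.17 ± 0.39 (adjusted p = 0.836) with it and 0.41 ± 0.25 (adjusted p = 0.277) without it. Bax (ENSMUSG00000003873, chromosome 7, 45461697 to 45466898), the pore-forming protein of the outer mitochondrial membrane, had 17.0, 21.2 and 18.7 CPM in the libraries labelled transgenic, against 20.7, 21.1 and 18.0 CPM in controls. It varied least of the 10 genes, with a coefficient of variation of 9.33% over the 6 libraries. Its log2 fold change was -0.07 ± 0.14 (adjusted p = 0.796, 95% interval -0.40 to 0.25), and -0.04 ± 0.15 without control replicate 1 (adjusted p = 0.850). Phlda3, a p53-induced repressor of AKT that competes for membrane lipids, was the next steadiest with the sestrin Sesn2, at 11.7% and 12.9%. Phlda3 (ENSMUSG00000041801, chromosome 1, 135766119 to 135769136) had 389, 431 and 358 CPM in the libraries labelled transgenic, against 328, 403 and 321 CPM in controls, and the log2 fold change was 0.16 ± 0.15 (adjusted p = 0.561, 95% interval -0.18 to 0.51), and 0.12 ± 0.15 without control replicate 1 (adjusted p = 0.600).

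The sestrins are stress-induced proteins that restrain the growth kinase complex mTORC1, with Sesn1 a p53 and FoxO target and Sesn2 a target of p53 and ATF4. Sesn1 (ENSMUSG00000038332, chromosome 10, 41809935 to 41908424) had 325, 208 and 271 CPM in the libraries labelled transgenic, against 112, 562 and 479 CPM in controls. Control replicates 2 and 3 were above every library labelled transgenic, and control replicate 1 was below every one. The mean was 268 ± 58.6 CPM in the libraries labelled transgenic and 385 ± 239.7 CPM in controls (SD, n = 3 each), and the log2 fold change was -0.52 ± 0.51 (adjusted p = 0.594). Sesn1 without control replicate 1 fell by 48.5% in the libraries labelled transgenic, at -0.96 ± 0.19 on the log2 scale (edgeR, adjusted p = 0.0258). Sesn2 (ENSMUSG00000028893, chromosome 4, 132492032 to 132510501) was scarce, with 5.496, 6.69 and 6.01 CPM in the libraries labelled transgenic, against 7.17, 7.94 and 6.78 CPM in controls. Its groups did not overlap, by a narrow margin, and its log2 fold change was -0.27 ± 0.17 (adjusted p = 0.406) and -0.28 ± 0.18 without control replicate 1 (adjusted p = 0.292).

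**Figure D2:**
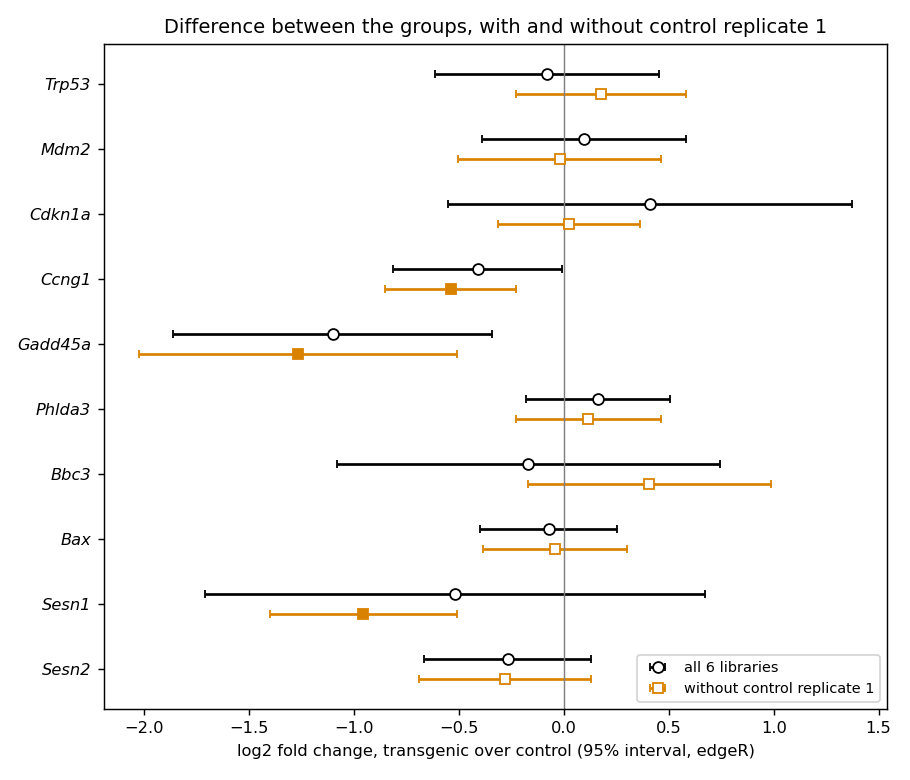
Log2 fold change, transgenic over control, of the 10 genes with 95% intervals from edgeR, for all 6 libraries (circles) and without control replicate 1 (squares). Filled symbols passed an adjusted p of 0.05, which only Ccng1 (-0.54), Gadd45a (-1.27) and Sesn1 (-0.96) did, and only without control replicate 1.

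Over the 10 genes the median log2 fold change was -0.13 with all libraries and -0.03 without control replicate 1, where the medians of all genes were -0.03 and 0.01. In 3 members, Trp53, Mdm2 and Bbc3, the sign turned between the fits. Control replicate 1 was the highest or lowest of the 6 libraries in 4 of the 10 members, which is near the 39% of all genes where this was so. Its summed level of the 10 genes was the lowest, at 1326 CPM, while the libraries labelled transgenic had 1756 to 1804 CPM and control replicates 2 and 3 had 2399 and 2211 CPM.

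Lymphocyte RNA marked the same library. The 9 B cell genes summed to 29.6 to 160.4 CPM in the libraries labelled transgenic and to 866, 51.2 and 71.1 CPM in control replicates 1, 2 and 3, and all 9 were highest in control replicate 1. The 15 T and NK cell genes summed to 1.53 to 9.06 CPM in the libraries labelled transgenic and to 214, 1.56 and 1.75 CPM in control replicates 1, 2 and 3, with 14 of 15 highest in control replicate 1. Of the defining genes, Cd3d, a T cell receptor subunit gene, had 0, 15 and 3 counts in the libraries labelled transgenic. It had 262 counts in control replicate 1 and 0 in both other controls. Adipocyte markers also summed highest in control replicate 1, at 482 CPM, with 3 of 5 highest there. They summed to 112, 417 and 254 CPM in the libraries labelled transgenic and to 106 and 172 CPM in control replicates 2 and 3. The part of these cells in the low Cdkn1a and Sesn1 and the high Trp53 and Bbc3 of that library was not tested. In whole muscle, fewer cells of a type and less RNA per cell cannot be told apart. Satellite cell markers moved in part with the groups. With all libraries 3 of 10 were higher in the libraries labelled transgenic (Calcr, Itga7 and Fgfr4), and 6 of 10 without control replicate 1. Of all genes 0.788% and 6.08% were called higher in the same fits. Pax7, Chrdl2, Sdc4 and Cdh15 passed in neither fit, and Sdc4 had negative log2 fold changes, -0.03 with all libraries and -0.32 without control replicate 1. The 10 markers summed to 242 to 299 CPM in the libraries labelled transgenic and to 169 to 229 CPM in controls. Most of that sum came from Itga7 and Sdc4. Itga7 averaged 121 CPM in the libraries labelled transgenic and 64.4 CPM in controls, and Sdc4 84.2 and 86.1 CPM. Pax7, Myf5 and Calcr averaged 2.91, 3.39 and 1.63 CPM in the libraries labelled transgenic, against 1.65, 1.41 and 0.374 CPM in controls. The sum therefore mostly followed Itga7 and Sdc4 and does not stand for the list. Of 10 fibre markers 0 passed, with a median log2 fold change of -0.25. With all libraries 0 passed among the markers of macrophages, endothelium, fibro-adipogenic progenitors, adipocytes and Schwann cells (9, 8, 6, 5 and 4 genes). Without control replicate 1, the fit in which Gadd45a, Sesn1 and Ccng1 passed, 1 of 9 macrophage, 2 of 6 progenitor and 1 of 5 adipocyte markers rose, and 0 of 8 endothelial and 0 of 4 Schwann cell markers passed. The log2 fold changes of all 8 endothelial, all 6 progenitor and 8 of 9 macrophage markers were positive in both fits. Macrophage markers summed to 144, 191 and 157 CPM in the libraries labelled transgenic, against 172, 77.2 and 126 CPM in controls. Endothelial markers summed to 680, 352 and 381 CPM in the libraries labelled transgenic, against 377, 266 and 319 CPM in controls. Progenitor markers summed to 1840 to 2232 CPM in the libraries labelled transgenic and 1212 to 1900 CPM in controls. The part of these cells in the lower Gadd45a, Sesn1 and Ccng1 was not tested.

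Compared per length, the members differed widely in FPKM (counts per length and library size). Phlda3 was highest in both groups, at 251.5 ± 22.9 FPKM in the libraries labelled transgenic and 225 ± 29.3 FPKM in controls. In the libraries labelled transgenic the order then ran Ccng1 (138 ± 10.4), Cdkn1a (121 ± 3.72), Sesn1 (67.2 ± 14.3), Gadd45a (38.0 ± 15.8), Mdm2 (16.2 ± 4.34), Bax (12.02 ± 1.40), Trp53 (4.47 ± 0.840), Bbc3 (2.36 ± 0.484) and Sesn2 (1.74 ± 0.180). The ranges of neighbours overlapped there only for Gadd45a and Mdm2, Mdm2 and Bax, and Bbc3 and Sesn2. With all 3 controls the order differed in 1 exchange, with Sesn1 (96.5 ± 60.3 FPKM) above Cdkn1a (91.4 ± 51.2 FPKM), and these overlapped widely. Gadd45a followed at 81.4 ± 17.5 FPKM, overlapping Cdkn1a, and the ranges of Phlda3 and Ccng1, Mdm2 and Bax, Trp53 and Bbc3, and Bbc3 and Sesn2 overlapped too. Without control replicate 1 the control means were 131 FPKM for Sesn1, 119.5 FPKM for Cdkn1a, 2.12 FPKM for Sesn2 and 1.78 FPKM for Bbc3, so that Bbc3 and not Sesn2 was lowest in controls. The 3 lowest members were thus the upstream factor itself, the death gene Bbc3 and the ATF4-responsive sestrin, in both groups.

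**Figure D3:**
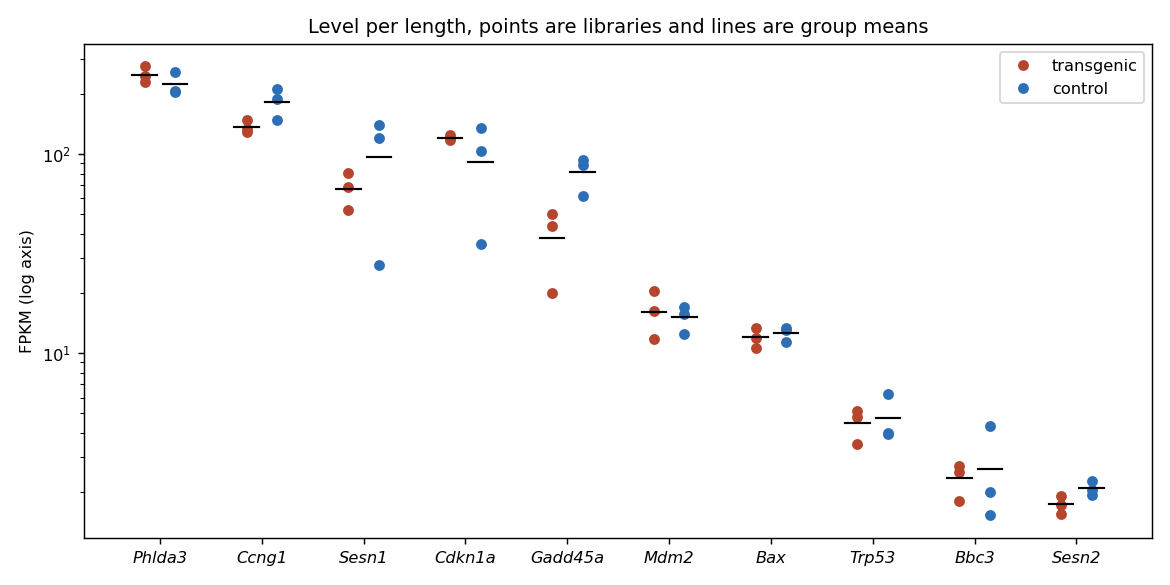
FPKM of the 10 genes on a log axis, with the libraries labelled transgenic left of controls for each gene, points for libraries and lines for group means. Phlda3 lies highest (mean 251.5 FPKM labelled transgenic, 225 FPKM control) and Sesn2 has the lowest mean (1.74 FPKM labelled transgenic, 2.09 FPKM control), although without control replicate 1 Bbc3 is lowest in controls (1.78 FPKM, against 2.12 FPKM for Sesn2), and the 3 controls are spread widely for Sesn1, Cdkn1a and Bbc3.

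A list of 35 further p53 targets gave 30 genes that passed the filter on low counts. With all 6 libraries 0 of 30 passed, 5 had an unadjusted p under 0.05 (20.8% of all genes did), and the median log2 fold change was 0.02. DESeq2 called 2 of the list, beside 7.31% of all genes. Of the 30, 5 passed without control replicate 1 (16.7%, beside 13.1% of all genes), 3 lower and 2 higher. Btg2, an antiproliferative cofactor of mRNA deadenylation, had 75.5, 49.4 and 70.0 CPM in the libraries labelled transgenic, against 87.6, 373 and 222 CPM in controls. Its log2 fold change was -1.81 ± 0.47 with all libraries (adjusted p = 0.102), and without control replicate 1 it fell at -2.19 ± 0.25 (adjusted p = 0.00706). Ptpn14, a phosphatase that restrains YAP, went the other way, with 54.0, 84.9 and 76.4 CPM in the libraries labelled transgenic, against 42.1, 30.8 and 37.0 CPM in controls. Its groups did not overlap, and its log2 fold change was 0.97 ± 0.20 (adjusted p = 0.0659) and 1.08 ± 0.20 without control replicate 1 (adjusted p = 0.0226). The other 3, named after their values were seen, were the exonuclease gene Aen and the autophagy regulator Trp53inp1, which fell without control replicate 1 at -0.53 and -0.60, and the death receptor Tnfrsf10b, which rose at 1.03. Of the 5 genes below the filter, Pmaip1, a BH3-only gene, had 7, 12 and 7 counts in the libraries labelled transgenic and 68, 5 and 5 in controls.

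**Figure D4:**
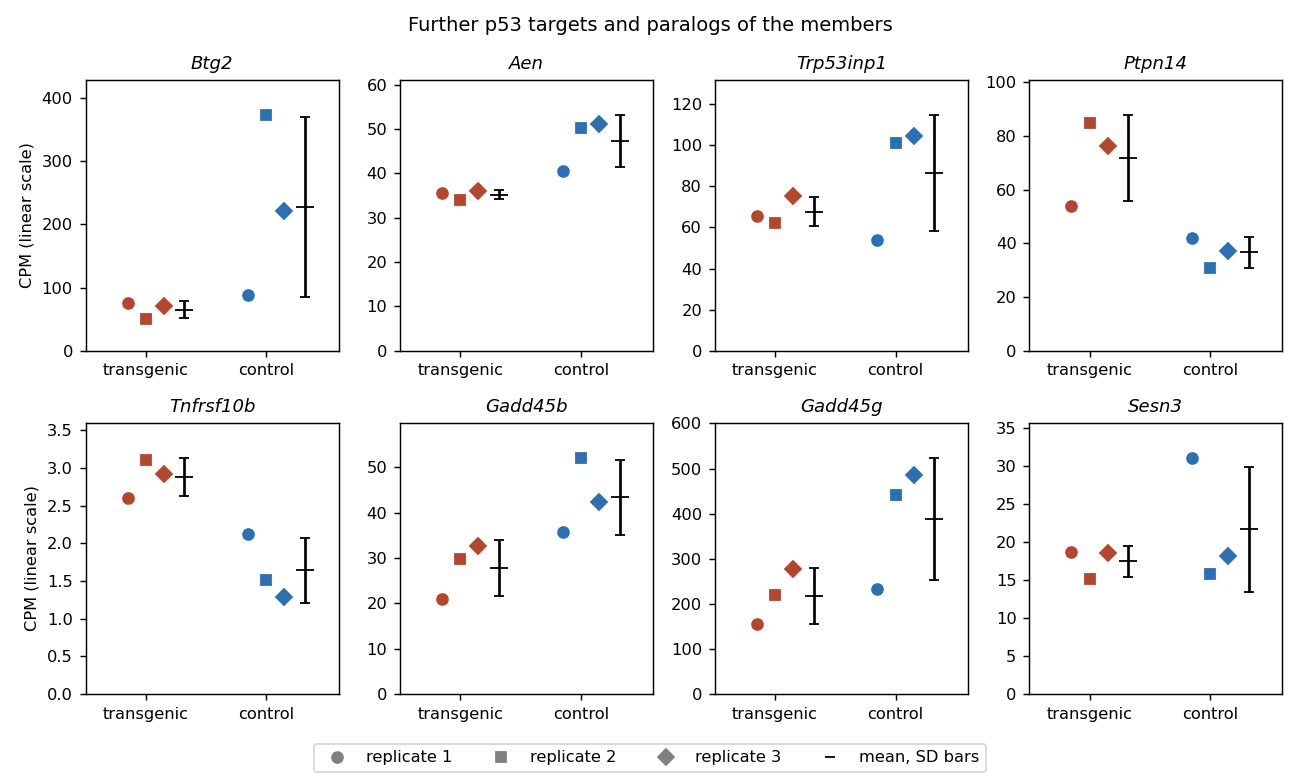
CPM of 5 further p53 targets and 3 paralogs of the members in each library, with the libraries labelled transgenic left of controls and the mean with SD bars (n = 3). Btg2, Trp53inp1 and Gadd45g in control replicate 1 (circles on the right) lie well below control replicates 2 and 3, and Sesn3 in control replicate 1 (31.1 CPM) lies above all others.

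Both GADD45 paralogs fell when control replicate 1 was left out, while Sesn3 did not pass. Of 5 GADD45, sestrin and PHLDA paralogs 4 passed the filter and 0 passed the test with all libraries, with Phlda2 at 0 counts in every library. Of the 4 tested, 2 fell without control replicate 1, beside 6.99% of all genes called lower. Gadd45b had 20.9, 29.9 and 32.6 CPM in the libraries labelled transgenic, against 35.7, 52.0 and 42.4 CPM in controls, and the groups did not overlap. Gadd45g had 154, 219.9 and 277 CPM in the libraries labelled transgenic, against 233, 442 and 487 CPM in controls. Both fell without control replicate 1, Gadd45b at -0.76 ± 0.20 (adjusted p = 0.0458) and Gadd45g at -1.10 ± 0.22 (adjusted p = 0.0268). With all libraries they were at -0.64 ± 0.21 (adjusted p = 0.153) and -0.83 ± 0.31 (adjusted p = 0.194). Sesn3 was at -0.31 ± 0.26 with all libraries and 0.04 ± 0.15 without control replicate 1.

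Around p53 itself, 0 of 21 tested regulators and DNA damage kinases passed with all libraries, and without control replicate 1 3 rose and 1 fell (4 of 21, beside 13.1% of all genes). Trp63, the p53 relative p63, was at 1.06 ± 0.29 on the log2 scale (adjusted p = 0.111) and the p53-binding repair protein gene Trp53bp1 0.59 ± 0.19 (adjusted p = 0.147), both with all libraries. Trp53bp1 rose without control replicate 1, at 0.73 ± 0.17 (adjusted p = 0.0378), and Trp63 did not pass there (0.83 ± 0.23, adjusted p = 0.0567). Of 15 tested cyclin-dependent kinase inhibitors, pocket proteins and arrest genes 0 passed with all libraries, and without control replicate 1 2 fell (13.3%, against the same 13.1%), the cyclin G relative Ccng2 (-0.57 ± 0.10, adjusted p = 0.0190) and the pocket protein gene Rbl2 (-0.68 ± 0.12, adjusted p = 0.0204). With all libraries Ccng2 was at -0.46 ± 0.13 (adjusted p = 0.111) and Cdkn2c, an inhibitor of CDK4 and CDK6, at 0.43 ± 0.13 (adjusted p = 0.133), which did not pass without control replicate 1 (0.38 ± 0.13, adjusted p = 0.0810). Of 22 tested proliferation genes 0 passed with all libraries, with Cdk2 at 0.61 ± 0.26 and Pcna at -0.27 ± 0.12. Of these, 3 rose without control replicate 1 (13.6%, beside 13.1% of all genes), among them Cdk2 (0.96 ± 0.16, adjusted p = 0.0173), and Pcna did not pass (-0.20 ± 0.11, adjusted p = 0.251). Of 22 genes of the BCL2 family and caspases 0 passed with all libraries, and without control replicate 1 2 rose and 2 fell (18.2%, beside 13.1% of all genes). Bcl2l1, which encodes the survival protein BCL-XL, averaged 63.4 ± 8.98 CPM in the libraries labelled transgenic and 35.2 ± 5.32 CPM in controls (log2 fold change 0.85 ± 0.16, adjusted p = 0.0546), and rose without control replicate 1 at 0.74 (adjusted p = 0.0258). Bcl2l11, which encodes the BH3-only protein BIM, averaged 10.8 ± 0.940 CPM in the libraries labelled transgenic and 17.2 ± 1.33 CPM in controls (-0.67 ± 0.14, adjusted p = 0.0697), and fell without control replicate 1 at -0.66 (adjusted p = 0.0312).

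Lists for the other inputs to Gadd45a, Cdkn1a and Sesn2 were read in the same way. Of 11 tested ATF4 genes 0 passed with all libraries, and without control replicate 1 1 rose and 3 fell (36.4%, beside 13.1% of all genes, and 6.99% lower). Atf4 itself had 181, 176 and 204 CPM in the libraries labelled transgenic, against 229, 441 and 349.6 CPM in controls, and fell without control replicate 1 at -1.08 ± 0.14 (adjusted p = 0.00940). With all libraries the 2 with the smallest p were Mthfd2, a mitochondrial folate enzyme, at 1.92 ± 0.38 (adjusted p = 0.0622), and Chac1, a glutathione-degrading enzyme, at -1.74 ± 0.46 (adjusted p = 0.105), with opposite signs. Mthfd2 without control replicate 1 rose at 2.01 ± 0.44 (adjusted p = 0.0305) and Chac1 fell at -2.00 ± 0.42 (adjusted p = 0.0286). Of 13 tested denervation-responsive genes 0 passed with all libraries, and without control replicate 1 1 rose and 4 fell (38.5%, beside 13.1% of all genes, and 6.99% lower). Chrna1, a subunit of the acetylcholine receptor, was at 0.79 ± 0.14 (adjusted p = 0.0512), and Myog, the myogenic factor myogenin, was at -1.41 ± 0.29 (adjusted p = 0.0688). Both passed without control replicate 1, at 0.72 for Chrna1 and -1.10 for Myog. The ubiquitin ligase gene Trim63 had 3018, 3739.9 and 4006 CPM in the libraries labelled transgenic, against 2638, 7615 and 7315 CPM in controls, with control replicate 1 the lowest library, as for Sesn1. Without that library Trim63 fell at -1.06 ± 0.24 (adjusted p = 0.0344). Fbxo32, of the same list, was also lowest in control replicate 1, at 1703 CPM. It did not pass without that library (-0.39 ± 0.22, adjusted p = 0.253). Trim63 and Fbxo32 were picked with their levels known, so they do not stand for the list.

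The genes whose profile over the 6 libraries lay nearest to that of Cdkn1a were sought among 11012 protein-coding genes, by the root-mean-square distance between centred log2 CPM profiles. The 5 nearest were Osbpl1a, Igfals, Socs2, Doc2b and B4galt1, at distances from 0.19 to 0.26 log2 units. Osbpl1a, an oxysterol-binding protein gene, had 109, 101 and 138 CPM in the libraries labelled transgenic, against 44.4, 138 and 103 CPM in controls. Each of the 5 had its lowest value in control replicate 1, as Cdkn1a did, and choosing genes by nearness to the Cdkn1a profile favours this.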

How the data were processed

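The authors sequenced 6 libraries of gastrocnemius RNA, and groups follow the genotype label, with replicate numbers from the titles. The submitters' processing notes list HISAT2 2.0.5, featureCounts 1.5.0-p3 and the build GRCm38, without role or order, and the strand setting is not given in the sources used here. Raw read counts, 1 row for each Ensembl gene, were deposited by the authors. Their FPKM, as deposited, equal the counts over gene length and over a constant for each library. Gene overlaps were read from GENCODE M21 on GRCm38.

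The main test was edgeR 4.0.16 (R 4.3.3; TMM, filterByExpr, quasi-likelihood with legacy = FALSE, two-sided, Benjamini-Hochberg over the 14973 genes tested, threshold 0.05), and all 10 members passed the filter. The SE is the size of the log2 fold change over the square root of its F statistic. Errors after CPM and FPKM are SDs over 3 libraries. A count of 3 corresponds to 0.120 to 0.145 CPM, and such floors cover counting error only. The steps were tested on simulated counts of 14698 genes. At 2-fold, 12 of 50 changed genes were recovered with all 6 libraries and 7 of 50 without control replicate 1. Of the calls in these fits 10 of 106 and 13 of 96 were false, more than the nominal 0.05 share. The measured libraries gave 194 calls with all 6 and 1956 without control replicate 1. Whether this recovery and false share hold for the measured libraries without control replicate 1 was not tested. The fit without control replicate 1 used the same genes. Lists were described by counts and medians, with no test of a list. The symbol Ddit3 names more than 1 row and was left out. Alternatives were DESeq2 1.42.0, limma 3.58.1 on log2(FPKM + 1) and log2(FPKM + 0.1), other scalings, filters and thresholds, a replicate block, and fits without each library. The members and the lists were chosen with earlier results of these data known. Named genes of each list are those past the threshold with all libraries or else the 2 with the smallest p, and others were named after their values were seen.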

Additional observations from a re-analysis of the deposited data

How the results depend on the processing

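With all 6 libraries the count of members past the threshold was 0 with edgeR, 1 with DESeq2, and 0 to 3 when 1 library was left out, the 3 being without control replicate 1. For the further p53 targets the count was 0, with 2 in DESeq2, 1 at an adjusted p of 0.1, and 0 to 5 without 1 library. For all genes it was 194, against 1065 with DESeq2, 121 and 112 with limma on log2(FPKM + 0.1) and log2(FPKM + 1), 124 without a filter, 1 and 739 at thresholds of 0.01 and 0.1, and 0 to 1956 without 1 library (1956 without control replicate 1, at most 54 without any other). With library totals 205 of 259 calls were higher, against 118 of 194. In the fit without control replicate 1, the 3 calls became 1 with library totals, 1 with limma on log2(FPKM + 1), 0 at a threshold of 0.01, and 0 to 3 when a further library was left out. These last settings were chosen after seeing the data. Same-numbered replicates had correlations of deviations of -0.02, -0.17 and 0.16. Differently numbered pairs were not compared, so these values do not settle whether the numbers pair the samples. With the replicate block 0 members, 0 further targets and 5 genes passed, and Gadd45a was at -1.18 (adjusted p = 0.0900).

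Scaling by library totals moved the median of all genes by 0.15 on the log2 scale, and with it Trp53 turned to 0.031 and Bax to 0.068. Gadd45a passed with DESeq2 at -1.09. Without 1 library the log2 fold change ran from -0.20 to 0.18 for Trp53, from -0.11 to 0.29 for Mdm2, from -0.44 to 0.41 for Bbc3, from -0.16 to 0.016 for Bax, from -0.54 to -0.29 for Ccng1, from -1.35 to -0.78 for Gadd45a, from -0.96 to -0.14 for Sesn1, from 0.02 to 0.81 for Cdkn1a (0.81 without control replicate 2), from 0.09 to 0.27 for Phlda3 and from -0.34 to -0.19 for Sesn2. Of 140 member values under other settings 128 kept direction and side of the threshold, 8 turned sign and 4 newly passed. The cause of these shifts was not tested.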
